A study of Homo sapiens with 52 samples.

Results

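The zinc response was followed through 9 genes, chosen by name among the 27043 genes listed in each of 52 RNA-seq tables: the metallothioneins MT1E, MT1F, MT1G, MT1M, MT1X and MT2A, the metallothionein pseudogene MT1L, the zinc exporter SLC30A1 and the transcription factor MTF1. The question was whether small molecules with metal-binding groups, or inhibitors of the Jumonji demethylases, shift these genes against the matching DMSO control. All samples came from fusion-positive rhabdomyosarcoma (FP-RMS) cells, a muscle-like childhood tumour cell type carrying PAX3-FOXO1, grown as an established line. The screen held 44 samples exposed for 6 h: 20 compounds at a high and a low dose, 1 sample each, and 4 libraries of DMSO, the solvent, 2 at 0.2% (titled high) and 2 at 0.1% (titled low). Another 8 samples covered N1302 at 1 uM for 6 h and entinostat at 1 uM for 1, 6 and 24 h, each with 1 DMSO sample at 0.1% of the same time. These 8 were titled RH4 and the screen samples RH41, whereas the cell line label read RH4 throughout, so levels were compared only within an experiment.

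Of the 20 screen compounds, 5 carried an HDAC label (histone deacetylases, enzymes that depend on zinc in classes I, II and IV). LAQ824, which the study calls a hydroxamic acid, was used at 5 and 0.5 uM. MC1568 (HDAC4/5), Merck60 (HDAC1/2, a benzamide), OJI-1 (HDAC8) and WT161 (HDAC6) were used at 10 and 1 uM. The Jumonji-labelled compounds were Cpd50 (pan Jumonji) and GSKJ4 (JMJD3/UTX), both at 5 and 0.5 uM. The Jumonji enzymes are iron-dependent demethylases. The other 13 were used at 10 and 1 uM: Bromosporin and SGC-CBP30 (bromodomains), SGC0946 (DOT1L), UNC1999 (EZH1), EZ-005 (EZH2), UNC0638 (KMT1C), UNC-1215 (L3MBTL3), LSD-519, LSD-690 and GSKLSD1 (LSD1), PFI-2 (SETD7), PFI-3 (SMARCA4) and Trametinib (MEK1/2). N1302 and entinostat (HDAC1/2/3) were HDAC-labelled as well, N1302 being an epoxide and entinostat a benzamide. A chemical class is given only where the study's text gives one. The other compounds may carry metal-binding groups too, so the compounds are compared one by one and none stands for a chemical class.

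Metallothioneins are small cysteine-rich proteins that bind zinc, copper and cadmium. MTF1 is the zinc-sensing factor that binds metal response elements and switches on metallothionein genes and SLC30A1, which carries zinc out across the plasma membrane. Metallothionein genes also respond to glucocorticoids and to oxidative stress. Zinc acts on MTF1 at the level of the protein, through its zinc fingers.

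The metallothionein members sit in 1 cluster on chromosome 16 (hg19, 56642478 to 56718108), MT2A at 56642478 to 56643409 and MT1X at 56716382 to 56718108 on the plus strand. SLC30A1 (211748381 to 211752099) and MTF1 (38275239 to 38325292) lie on the minus strand of chromosome 1. The promoters of the 3 members that rose with GSKJ4 are shown, with that of the exporter SLC30A2, which rose with them. They are the 250 bases before the RefSeq start in GRCh38.p14, 5′ to 3′ on the gene's strand, and capitals mark the core of a metal response element, TGCACNC or TGCGCNC, on either strand. MT1X lies at chr16:56682220-56682469 (plus), MT2A at chr16:56608334-56608583 (plus), SLC30A1 at chr1:211579162-211579411 (minus) and SLC30A2 at chr1:26046119-26046368 (minus).
MT1X: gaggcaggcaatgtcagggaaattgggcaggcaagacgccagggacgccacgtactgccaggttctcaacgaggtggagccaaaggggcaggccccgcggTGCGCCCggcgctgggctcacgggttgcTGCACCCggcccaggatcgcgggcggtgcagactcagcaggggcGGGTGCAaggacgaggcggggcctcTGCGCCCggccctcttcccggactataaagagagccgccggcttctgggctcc
MT2A: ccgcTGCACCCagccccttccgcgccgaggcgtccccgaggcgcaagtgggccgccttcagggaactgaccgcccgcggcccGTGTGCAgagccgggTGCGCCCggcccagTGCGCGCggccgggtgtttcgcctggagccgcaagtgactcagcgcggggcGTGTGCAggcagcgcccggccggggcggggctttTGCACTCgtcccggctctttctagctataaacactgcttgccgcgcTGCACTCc
SLC30A1: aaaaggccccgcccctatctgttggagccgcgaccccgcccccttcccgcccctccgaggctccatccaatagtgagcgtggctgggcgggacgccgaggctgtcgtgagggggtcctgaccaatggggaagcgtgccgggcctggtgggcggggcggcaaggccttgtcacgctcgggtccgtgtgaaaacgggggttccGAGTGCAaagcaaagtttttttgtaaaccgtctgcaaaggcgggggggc
SLC30A2: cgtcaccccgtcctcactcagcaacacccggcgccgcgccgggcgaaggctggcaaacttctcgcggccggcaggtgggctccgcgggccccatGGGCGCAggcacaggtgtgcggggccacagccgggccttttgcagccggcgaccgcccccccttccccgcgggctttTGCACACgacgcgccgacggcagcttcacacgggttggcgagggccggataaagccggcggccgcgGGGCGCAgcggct
The MT2A promoter held 7 matches, MT1X 4, SLC30A2 3 and SLC30A1 1, and the promoter of MTF1 held 0. Among 35116 promoters of the same length, 24.8% held at least 1 match, 1.58% at least 3, 0.37% at least 4 and 0.0313% (11 promoters) at least 7. A match is a description of these letters, not a measured binding site.

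Of the 9 members, 4 were measurable: MT1X, MT2A, SLC30A1 and MTF1 reached 1 TPM in at least 2 samples, the filter that left 16359 genes for testing. TPM scales a gene's reads by gene length and by library, so levels can be compared between genes. MT1L and MT1M were listed at 0 in all 52 samples. MT1E had 1 read in total, MT1G 2 and MT1F 5, of which 3 were in the N1302 sample, 1 in GSKJ4 at 5 uM and 1 in entinostat at 24 h. These 5 could not be tested. Metallothioneins share sequence, and the study's methods name RSEM, which apportions reads with several matches, whereas the values behaved like whole reads, so how such reads were split could not be worked out. All 50-base words of MT1L, 18.7% of those of MT1X and 4.48% of those of MT2A also occurred in another gene, against 0 for SLC30A1. That gene was not always a named metallothionein. For MT1X 273 of the 341 shared words occurred in 1 annotated entry without a gene name, and all 137 words of MT1L occurred in another such entry.

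In the 4 screen DMSO libraries MT2A, the main metallothionein of most tissues, stood at 163, 188 and 203 TPM (lowest, median, highest). MT1X was low there, at 1.21, 2.53 and 3.35 TPM from 3 to 11 reads per library, so its changes carry a wide counting error. SLC30A1 stood at 12.2, 12.9 and 13.7 TPM and MTF1 at 12.1, 12.6 and 13.6 TPM. Between DMSO at 0.2% and 0.1%, 0 of the 4 members passed limma's test (background 0% in either direction, 1548 of 16359 genes under 0.05 before adjustment), and the members differed by at most 0.18 on the log2(TPM + 1) scale. In the 4 RH4-titled DMSO samples the levels were 13.3 to 38.4 TPM for MT1X, 190 to 358 for MT2A, 19.3 to 29.5 for SLC30A1 and 12.96 to 17.9 for MTF1.

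The libraries held 5667723 to 40929310 reads, as worked out from the steps of the TPM values, and 12604 to 14997 genes at 1 TPM or more. All 7 FP-RMS markers, among them MYOD1 and MYOG, were expressed, with a summed level of 2510 to 2561 TPM in screen DMSO. Of 4 fibroblast markers 2 reached 1 TPM in screen DMSO (summed 2032 to 2069 TPM), and of 4 leukocyte markers 1 did (summed 2.11 to 3.02 TPM, PTPRC at 0). The same-concentration DMSO libraries were sequenced on different flow cells and, once flow cell was allowed for, differed by no more than counting noise (1.02 times the variance expected), so each concentration counted as 1 sample. Nothing in the sources says that samples came from separate cultures, so p-values measure the spread between these samples.

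GSKJ4 at 5 uM raised the metallothioneins and the zinc exporter more than almost any other gene. MT1X stood at 242 TPM (734 reads) against 2.53 TPM in DMSO at 0.2%, MT2A at 1849 TPM against 175 TPM, and SLC30A1 at 146 TPM against 13.1 TPM. Those ratios were 96.0 for MT1X (95% counting interval 57.8 to 172), 10.6 for MT2A (9.90 to 11.3) and 11.2 for SLC30A1 (10.0 to 12.5). All 3 exceeded every other sample of the screen. In a pool of cells, more RNA in each cell and more cells expressing the gene cannot be told apart. By size of increase on the log2(TPM + 1) scale MT1X ranked 1, MT2A 4 and SLC30A1 5 among the 16359 genes, and the genes at ranks 2 and 3 were the microRNA genes MIR4321 and MIR6746, with 12 and 5 reads.

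**Figure D1:**
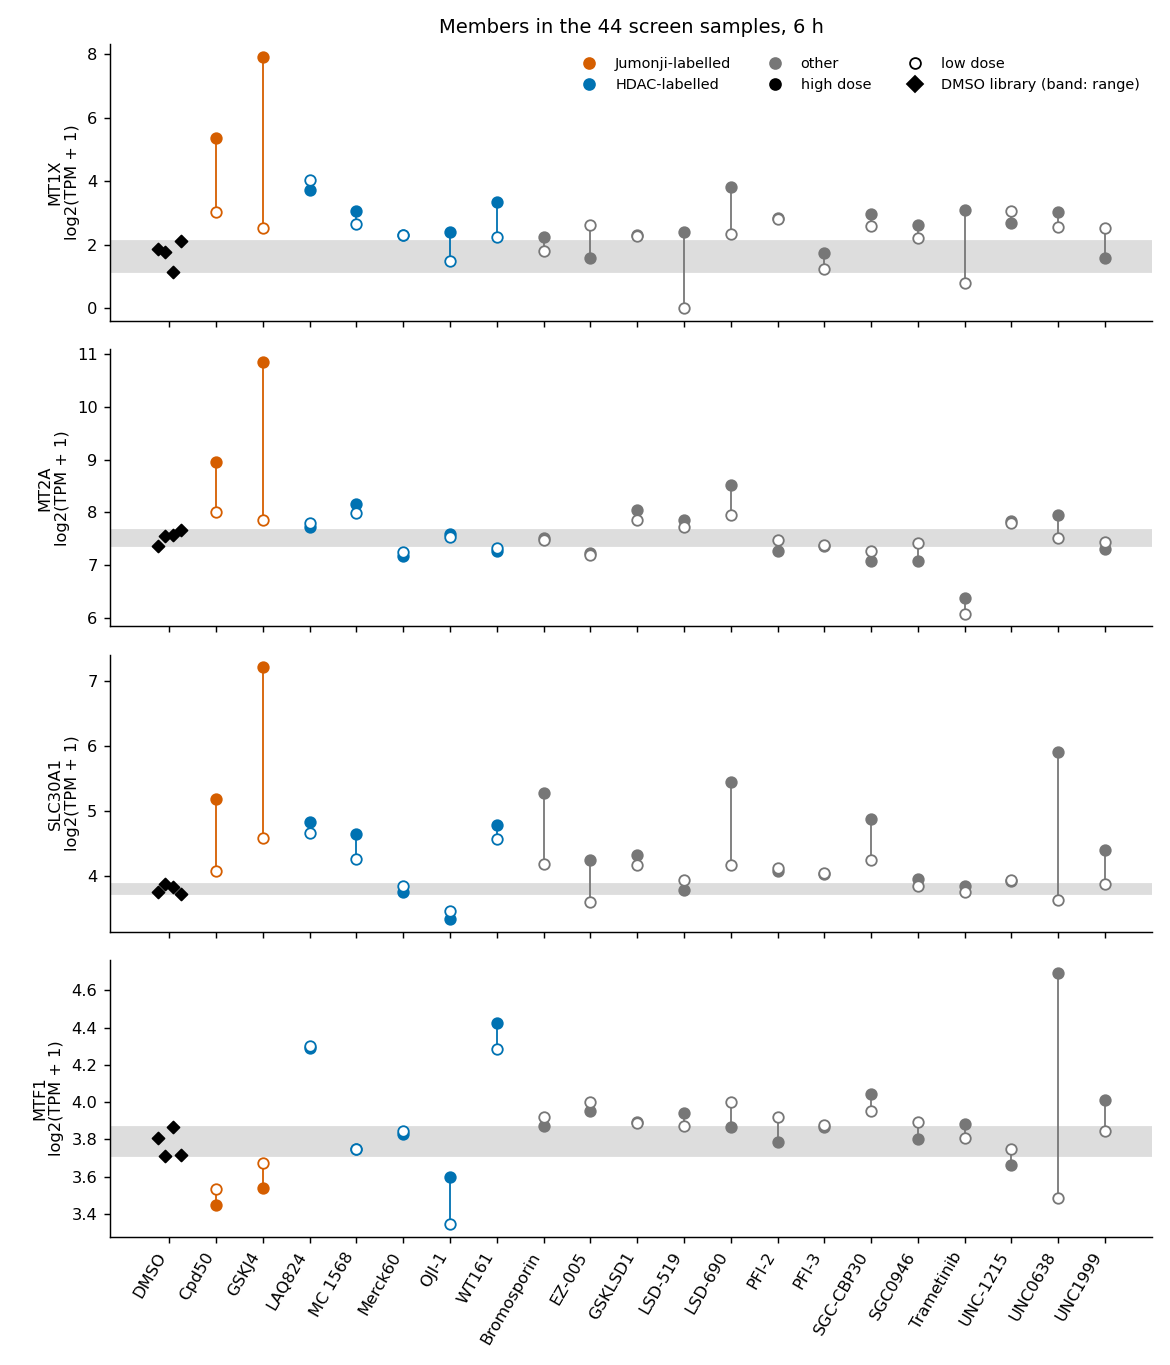
Levels of MT1X, MT2A, SLC30A1 and MTF1 as log2(TPM + 1) in the 44 screen samples, with a filled circle for the high and an open circle for the low dose of each compound, black diamonds for the 4 DMSO libraries and a grey band for their range. GSKJ4 at 5 uM stands highest for MT1X (242 TPM), MT2A (1849 TPM) and SLC30A1 (146 TPM), Cpd50 at 5 uM comes next for MT1X (40.5 TPM) and MT2A (492 TPM), and MTF1 is below the DMSO band with both.

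The increase was seen at the higher dose. With GSKJ4 at 0.5 uM, MT1X was at 4.80 TPM, MT2A at 230 TPM and SLC30A1 at 23.1 TPM, against DMSO at 0.1% with 2.28, 196 and 12.7 TPM. All 3 low-dose values lay above the 4 DMSO libraries, as did 33.4% of tested genes in that sample. The counting interval of the MT1X ratio at 0.5 uM included 1 (0.929 to 4.76), whereas SLC30A1 was 1.82 times DMSO (1.56 to 2.11). MTF1, the factor itself, was at 10.6 TPM with 5 uM and 11.8 TPM with 0.5 uM, below all 4 DMSO libraries at both doses, as were 34.4% and 21.7% of tested genes.

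Taken over both doses, the GSKJ4 changes did not pass limma's test with Benjamini-Hochberg adjustment over 16359 genes. The log2 changes were 3.51 for MT1X (SE 1.04, adjusted p = 1.00), 1.81 for MT2A (SE 0.471, adjusted p = 0.935), 2.10 for SLC30A1 (SE 0.599, adjusted p = 1.00) and -0.17 for MTF1. The background with GSKJ4 was 0% called higher and 0.0122% lower, so almost no gene passed in that design. Its pooled spread is estimated from the dose pairs, in which GSKJ4's own gap between doses enters.

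With the 5 uM sample fitted alone and the spread taken from the other compounds' dose pairs, 3 of the 4 tested members were called higher, against a background of 0.0795% higher (18 genes called in all, 0.11%). The log2 changes were 6.20 for MT1X (SE 0.882, adjusted p = 0.00128), 3.31 for MT2A (SE 0.249, adjusted p = 3.03e-08) and 3.41 for SLC30A1 (SE 0.587, adjusted p = 0.00789). That limma fit assumes that the lone sample varies like the others. With a pseudocount of 0.1 in place of 1, MT1X was no longer called (adjusted p = 0.0653), and MT2A and SLC30A1 were. With 0.5 uM fitted alone, 0 of the 4 members were called (background 0.00611% higher). Against the DMSO libraries of its own flow cell only, the log2 changes of GSKJ4 over both doses were 3.73 for MT1X, 1.89 for MT2A and 2.10 for SLC30A1.

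Other zinc transporters showed a narrower response to GSKJ4 at 5 uM. Of the 7 other zinc exporters (SLC30 family) tested, 1 was called higher and 0 lower, and of the 11 zinc importers (SLC39 family) 0 were called higher and 1 lower. SLC30A2, which loads zinc into vesicles, stood at 2.51 TPM (47 reads) against 0.166 TPM at 0.5 uM and 0.0914 TPM (3 reads) in DMSO at 0.2%, a ratio of 27.5 with a counting interval of 8.84 to 138 (log2 change 1.75, limma adjusted p = 0.00785). That call was lost with a pseudocount of 0.1 (adjusted p = 0.333), and with a filter at a mean of 5 TPM the gene was not tested. The importer SLC39A10 fell to 12.2 TPM from 39.6 TPM at 0.5 uM and 38.2 TPM in DMSO (log2 change -1.64, adjusted p = 0.00476, background 0.0306% lower). The median log2 change was -0.03 for the exporters and -0.12 for the importers, beside -0.01 for all tested genes. The genes called outside these lists were mostly microRNA and snoRNA genes, with GRB10 higher and SRSF2 and MRPL32 lower among the few others.

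**Figure D2:**
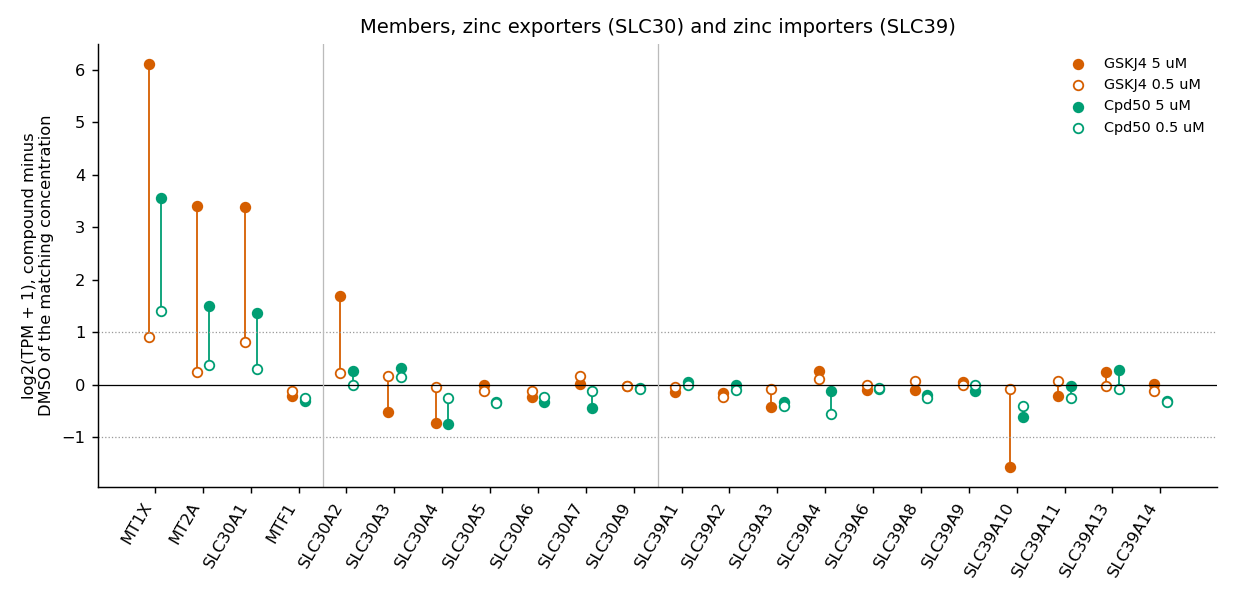
Difference in log2(TPM + 1) from DMSO of the matching concentration for the 4 tested members, 7 zinc exporters and 11 zinc importers, with GSKJ4 in orange, Cpd50 in green, filled circles for 5 uM, open circles for 0.5 uM and dotted lines at 2-fold. With GSKJ4 at 5 uM, MT1X, MT2A, SLC30A1 and SLC30A2 lie above 2-fold and SLC39A10 below it, and the other transporters lie between the lines.

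Lists of genes that respond to other stimuli of metallothioneins were read beside these values. In the same GSKJ4 5 uM fit 0 of 6 heat shock genes, 0 of 8 NRF2 targets (oxidative stress), 0 of 10 HIF targets (hypoxia), 0 of 5 glucocorticoid receptor targets, 0 of 7 iron handling and 0 of 6 copper handling genes were called in either direction. The NRF2 target SLC7A11, the cystine carrier, stood at 11.3 TPM against 2.93 TPM in DMSO without being called, and HMOX1 differed from DMSO by -0.11 on the log2 scale. As given above, only 0.11% of all tested genes were called in that fit, so counts of 0 in lists this short say little. The part of these pathways in the member changes was not tested.

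Cpd50, the pan Jumonji compound, gave smaller ratios for the same members. At 5 uM MT1X was at 40.5 TPM (111 reads), MT2A at 492 TPM and SLC30A1 at 35.3 TPM, which are 16.04 times (9.32 to 29.6), 2.81 times (2.60 to 3.05) and 2.70 times (2.36 to 3.09) DMSO at 0.2%. At 0.5 uM they were at 7.25, 255 and 15.9 TPM, and all 3 lay above the 4 DMSO libraries at both doses, as 28.6% of genes did at 5 uM and 27.9% at 0.5 uM. MTF1 was below all 4 DMSO libraries at both doses, at 9.92 and 10.6 TPM, as were 43.5% and 41.4% of tested genes.

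Over both doses the log2 changes with Cpd50 were 2.49 for MT1X (SE 1.04, limma adjusted p = 0.202), 0.93 for MT2A (adjusted p = 0.33), 0.84 for SLC30A1 (adjusted p = 0.571) and -0.28 for MTF1 (adjusted p = 0.569), so 0 members were called against a background of 3.43% higher. Of the 8 member tests of the Jumonji-labelled compounds 0 were called (background 1.71% higher and 1.14% lower over both compounds), and 4 were under 0.05 before adjustment. With the GSKJ4 samples left out of the fit, the SE of MT1X fell to 0.721, and MT1X (adjusted p = 0.0411) and MT2A (adjusted p = 0.00508) were called higher with Cpd50, where the background was 3.32%. At 5 uM alone in that fit MT1X rose by 3.65 (adjusted p = 0.00778) and MT2A by 1.41 (adjusted p = 3.57e-05) on the log2 scale, where the background was 2.49%. With the GSKJ4 samples kept, MT1X at 5 uM was not called (adjusted p = 0.128, background 2.56% higher).

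Hypoxia genes moved beside the members with Cpd50. There 9 of 10 HIF targets were called higher over both doses, against a background of 3.43% higher. Their median log2 change was 3.01 beside -0.05 for all genes, and PDK1 (4.52), BNIP3 (3.78) and CA9 (3.43) led. With GSKJ4 0 of 10 were called, where 0% of all genes were called higher and 0.0122% lower. The difference between the compounds was not tested for the list. Of the heat shock genes 4 of 6 were called lower with Cpd50 (background 2.27% lower), among them HSPH1 (-1.23), and of 7 iron handling genes the transferrin receptor TFRC was called higher (1.01). None of the 7 other zinc exporters or 11 importers was called with Cpd50 in either direction (background 3.43% higher and 2.27% lower). SLC30A2 had 5 reads at 5 uM (0.295 TPM) and 0 at 0.5 uM. SLC39A10 was at 24.7 and 31.4 TPM, 0.646 times (0.599 to 0.697) and 0.750 times (0.701 to 0.801) DMSO.

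Tested directly over both doses, no member was called between Cpd50 and GSKJ4. The pooled spread of that test includes GSKJ4's own gap between doses (log2 5.39 for MT1X, 3.00 for MT2A, 2.62 for SLC30A1). It therefore cannot settle whether the compounds differ. At 5 uM the counting intervals given above for MT1X, MT2A and SLC30A1 did not overlap between the compounds. Those intervals cover counting error only, in 1 sample each. Cpd50 minus GSKJ4 was -1.02 on the log2 scale for MT1X (95% interval -3.17 to 1.13, adjusted p = 0.545), -0.88 for MT2A (-1.85 to 0.09, adjusted p = 0.193), -1.27 for SLC30A1 (-2.50 to -0.03, adjusted p = 0.134) and -0.12 for MTF1. The limma p-values were adjusted over all genes and the 7 pairs compared, and 4.0% of genes were called higher and 2.81% lower for that pair.

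Among the 5 HDAC-labelled compounds of the screen LAQ824 had the highest MT1X. It stood at 12.3 TPM (52 reads) with 5 uM and 15.5 TPM (77 reads) with 0.5 uM, which are 4.86 times (2.70 to 9.30) and 6.77 times (3.80 to 12.96) DMSO. MT2A hardly differed from DMSO, at 210 and 222 TPM, and SLC30A1 was at 27.4 and 24.3 TPM. MTF1 was at 18.6 and 18.8 TPM, above all 4 DMSO libraries. All 4 members were above the DMSO range at both doses, beside 45.7% and 46.4% of tested genes in those samples. Of the 7 FP-RMS identity markers 6 were past 2-fold lower with LAQ824 at 5 uM (median log2 change -2.23) and with WT161 at 10 uM (-1.81), against 0 with GSKJ4 at 5 uM. The median of all tested genes was 0.03, 0.02 and -0.01 in those samples. Many other genes fell too, with 24.6% of all genes called lower in limma over both doses of LAQ824. The part of the marker loss in the member values was not tested.

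Over both doses LAQ824 changed MT1X by 2.16 (SE 1.04, limma adjusted p = 0.084), MT2A by 0.22 (adjusted p = 0.722), SLC30A1 by 0.95 (SE 0.599, adjusted p = 0.189) and MTF1 by 0.52 (SE 0.204, adjusted p = 0.0341) on the log2 scale. Only MTF1 was called, where 28.4% of all genes were called higher. Without the GSKJ4 samples in the fit MT1X was called too (adjusted p = 0.0146, background 28.2%). Against the DMSO libraries of its own flow cell the changes were 1.94 for MT1X, 0.15 for MT2A, 0.95 for SLC30A1 and 0.58 for MTF1.

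WT161 also raised MTF1, to 20.5 TPM at 10 uM and 18.5 TPM at 1 uM (log2 change 0.58, SE 0.204, limma adjusted p = 0.0309, background 17.7% higher), a call that median-ratio scaling of the libraries ended (adjusted p = 0.0505). Its MT1X was at 9.29 and 3.73 TPM, its SLC30A1 at 26.5 and 22.7 TPM and its MT2A at 154 and 159 TPM, the last below all DMSO libraries, as were 39.4% and 36.2% of tested genes. MC1568 gave MT1X of 7.36 and 5.26 TPM, MT2A of 285 and 251 TPM and SLC30A1 of 24.1 and 18.2 TPM at 10 and 1 uM, and no member was called. Merck60, the benzamide, left MT1X at 3.97 and 3.93 TPM and SLC30A1 at 12.6 and 13.4 TPM. OJI-1 had the lowest SLC30A1 of the screen, at 9.14 and 10.0 TPM, and MTF1 of 11.1 and 9.16 TPM, without a call. In all, 2 of 20 member tests of the HDAC-labelled compounds were called, both of MTF1 and both higher, where 13.2% of tests over all genes and these compounds were called higher and 8.41% lower.

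The MTF1 calls carried over into 2 of the 6 comparisons among the HDAC compounds with doses of 10 and 1 uM. MC1568 minus WT161 was -0.61 for MTF1 (limma adjusted p = 0.0309) and OJI-1 minus WT161 was -0.89 (adjusted p = 0.00233), where 10.7% and 21.1% of genes were called lower. The metallothioneins and SLC30A1 were called in none of the 6 pairs, over which 17.2% of tests of all genes were called higher and 9.18% lower. With the GSKJ4 samples out of the fit, MT2A was higher with MC1568 than with Merck60 (log2 difference 0.86, adjusted p = 0.00291, background 17.1%) and WT161 (0.77, adjusted p = 0.00666, background 26.6%). MC1568 was sequenced on another flow cell than Merck60, OJI-1 and WT161, so in its 3 pairs flow cell and compound cannot be told apart. LAQ824 was left out of these pairs because its doses differed.

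Other zinc transporters were called with LAQ824, WT161 and MC1568, beside many more genes overall. With LAQ824 3 of 7 other exporters were called higher and 0 lower, led by SLC30A3 (1.81), and of 11 importers 3 were called higher, led by SLC39A3 (1.21), and 2 lower, led by SLC39A10 (-1.40), against a background of 28.4% higher and 24.6% lower. With WT161 3 exporters, led by SLC30A3 (1.27), and 3 importers, led by SLC39A9 (0.89) and SLC39A14 (0.88), were called higher, against a background of 17.7%. With MC1568 SLC30A3 (1.29) and the importers SLC39A14 (1.15) and SLC39A8 (0.86) were called higher, against a background of 19.6%. With Merck60 and OJI-1 none was called, but almost no gene was called with either. In the fit without the GSKJ4 samples, 0.0245% of genes were called higher and 0.0917% lower with Merck60. With OJI-1 these shares were 0.0734% and 0.055%, so counts of 0 there say little. The exporters' median log2 change was 0.45 with LAQ824 and with WT161, beside 0.06 and 0.03 for all genes.

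Of the 13 other compounds none had a called member over both doses, in 52 tests of which 1 was under 0.05 before adjustment (background over the 13 compounds 1.66% higher and 2.99% lower). That was MT2A with Trametinib, the MEK inhibitor, at 81.5 and 66.3 TPM, below all 4 DMSO libraries, as were 32% and 31.1% of tested genes, and below every other screen sample. Its log2 change was -1.32 (SE 0.471, limma adjusted p = 0.172, background 1.37% lower). Without the GSKJ4 samples in the fit it was called (adjusted p = 0.000368, background 1.22%), and both doses were called when fitted alone in that fit (adjusted p = 0.022 and 0.00307, background 0.416% and 0.556% lower). MT1X with Trametinib was at 7.59 and 0.756 TPM, the latter from 1 read.

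SLC30A1 was above all 4 DMSO libraries with 11 of the 13 compounds at the high dose and 9 at the low dose. MT1X was so with 10 and 9, beside 24.3% to 58.0% of tested genes in the samples of these compounds. Several compounds had far more SLC30A1 at 10 uM than at 1 uM. UNC0638 stood at 59.0 TPM at 10 uM and 11.5 TPM at 1 uM, LSD-690 at 42.4 and 17.1 TPM, Bromosporin at 37.8 and 17.2 TPM and SGC-CBP30 at 28.4 and 18.03 TPM. With UNC0638 at 10 uM fitted alone, SLC30A1 (log2 change 2.11, SE 0.630, limma adjusted p = 0.00913) and MTF1 (24.9 TPM, log2 change 0.92, SE 0.123, adjusted p = 2.38e-06) were called higher, where 14.9% of genes were called higher and 41.3% in all. MT1X and MT2A were not called there, at 7.11 and 247 TPM. LSD-690 at 10 uM had MT2A of 363 TPM and MT1X of 13.1 TPM (12 reads), 2.07 times (1.83 to 2.34) and 5.18 times (2.22 to 11.9) DMSO. LSD-519, with the same LSD1 label, had MT2A of 229 TPM and SLC30A1 of 12.8 TPM at 10 uM.

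The flow cell of 14 compounds, with UNC0638, LSD-690, WT161 and Trametinib among them, held no DMSO library, nor did that of GSKLSD1 and UNC-1215, so flow cell and treatment cannot be told apart in their difference from DMSO. Among the 14, set against the other compounds of the flow cell, MT2A was called higher with LSD-690 (0.92, limma adjusted p = 0.00133, background 0.972%) and UNC0638 (0.38, adjusted p = 0.0443, background 2.8%) and lower with Trametinib (-1.24, adjusted p = 3.65e-05, background 1.54%). MTF1 was called higher with WT161 (0.48, adjusted p = 0.0477, background 20%).

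The compound classes were compared with the compound as the unit. The 2 Jumonji-labelled compounds exceeded the 13 other compounds by 2.42 in MT1X (SE 0.443, unadjusted p = 2.12e-05, limma adjusted p = 0.0866), 1.46 in MT2A (adjusted p = 0.306) and 1.05 in SLC30A1 (adjusted p = 0.493) on the log2 scale, and MTF1 differed by -0.35 (adjusted p = 0.774). No member was called, where 0.0183% of genes were called higher and 1081 genes were under 0.05 before adjustment. With the high doses only, MT1X (4.12, adjusted p = 0.00137) and MT2A (2.41, adjusted p = 0.0477) were called, where 0.0306% of genes were called higher. Without LAQ824 in the fit MT1X was called at limma adjusted p = 0.0238. It was not called with a pseudocount of 0.1 (adjusted p = 0.411) or a filter at a mean of 5 TPM (0.215). Nor was it called without MC1568 (0.149). With GSKJ4 left out, Cpd50 alone exceeded the others by 1.91 in MT1X, 1.02 in MT2A and 0.41 in SLC30A1. With Cpd50 left out, GSKJ4 alone exceeded them by 2.93, 1.90 and 1.68. Both Jumonji-labelled compounds were sequenced on a flow cell that held none of the 13 others. No fit with flow cell as a term could give the class difference, so flow cell and class cannot be told apart in it.

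The 5 HDAC-labelled compounds did not differ from the 13 others by an amount this design could detect. The difference was 0.46 in MT1X (95% interval -0.18 to 1.10, limma adjusted p = 0.357), 0.12 in MT2A (-0.36 to 0.60), -0.0021 in SLC30A1 (-0.49 to 0.49) and 0.04 in MTF1 (-0.21 to 0.29). 0 members were called, where 0.00611% of genes were called higher and 3879 were under 0.05 before adjustment. The upper bounds allow a mean increase of about 2-fold in MT1X. With flow cell as a covariate the difference was 0.10 in MT1X (SE 0.356, adjusted p = 0.981) and -0.28 in SLC30A1 (SE 0.288, adjusted p = 0.969).

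**Figure D3:**
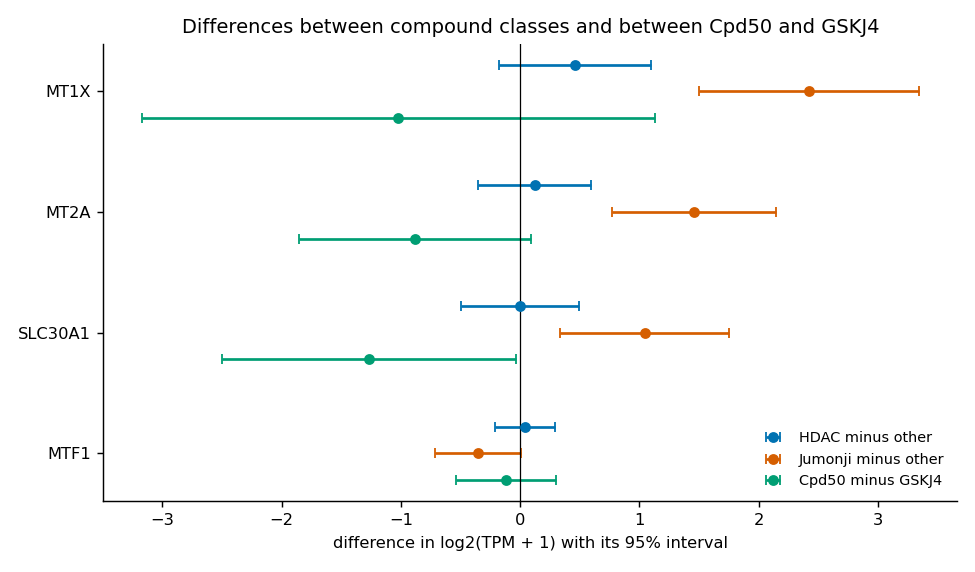
Differences in log2(TPM + 1) with 95% intervals for the 4 tested members, with HDAC-labelled minus other compounds in blue, Jumonji-labelled minus other in orange and Cpd50 minus GSKJ4 in green. The orange intervals of MT1X (2.42), MT2A (1.46) and SLC30A1 (1.05) lie above 0, the blue intervals include 0 for every member, and the intervals hold no flow cell term, which cannot be told apart from the Jumonji class, and are not adjusted for the number of genes tested.

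Dose was followed over all 20 compounds as the high minus the low dose of each. SLC30A1 was higher at the high dose with 14 of 20 compounds, by 0.54 ± 0.779 (SD, n = 20 compounds, exact sign-flip permutation p = 0.000969, two-sided) on the log2 scale, and MT1X with 16 of 20, by 0.80 ± 1.46 (exact permutation p = 0.0134). MT2A was higher with 12 compounds (0.24, exact permutation p = 0.0886) and MTF1 with 9 (0.06, exact permutation p = 0.479). In limma over all genes 0 members passed (SLC30A1 adjusted p = 0.143, MT1X 0.192), where 0% of genes were called and 2876 were under 0.05 before adjustment. Without both Jumonji-labelled compounds the mean was 0.39 for SLC30A1 (exact permutation p = 0.00388) and 0.45 for MT1X (exact permutation p = 0.0533). High and low doses differed in DMSO concentration as well, which by itself came with 0.04 in SLC30A1 and 0.18 in MT1X.

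**Figure D4:**
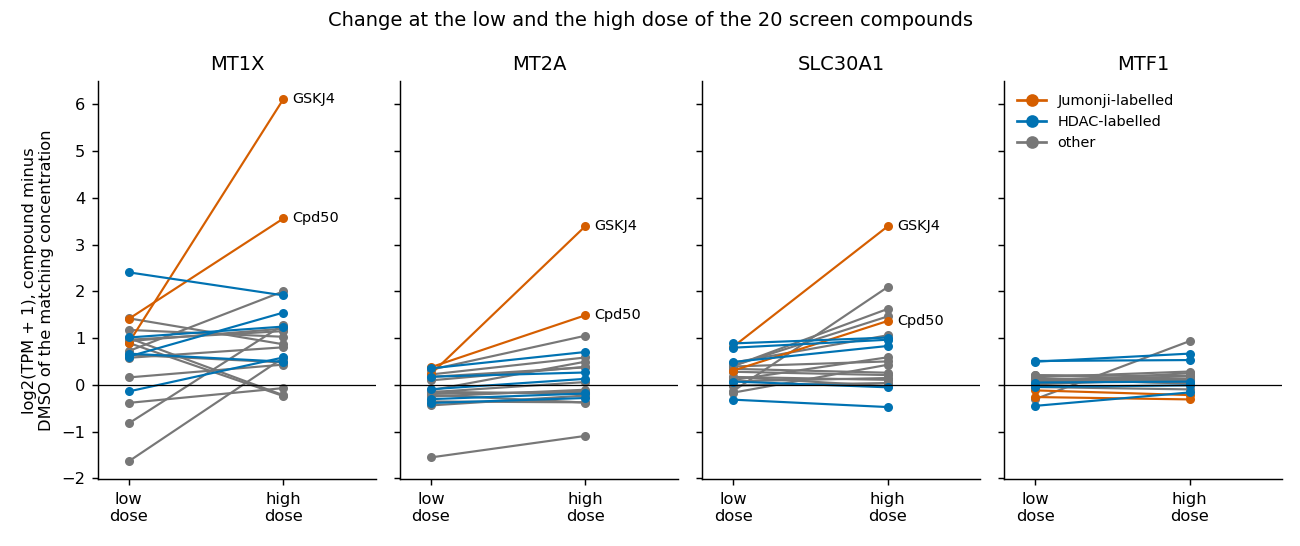
Difference in log2(TPM + 1) from DMSO of the matching concentration at the low and the high dose of the 20 screen compounds, 1 line per compound and 1 panel per member. GSKJ4 climbs most steeply in MT1X, MT2A and SLC30A1, several other compounds also climb in MT1X and SLC30A1, and most MTF1 lines stay near 0.

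The order of the levels mostly could not be resolved. Ranked by mean log2 level over both doses, GSKJ4 was highest of 21 conditions for MT1X, MT2A and SLC30A1, followed by Cpd50 for MT1X and MT2A and by LSD-690 for SLC30A1. Of the 20 neighbouring pairs in each order, the ranges of the samples were apart in 1 for MT1X, 4 for MT2A, 3 for SLC30A1 and 3 for MTF1, and overlapped in the rest. DMSO ranked 19 for MT1X, 20 for SLC30A1, 16 for MTF1 and 11 for MT2A, and the lowest was LSD-519 for MT1X and Trametinib for MT2A.

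Across the 20 compound means, MT1X, MT2A and SLC30A1 were alike. Pearson's r of log2(TPM + 1) was 0.780 for MT1X with SLC30A1, 0.705 for MT1X with MT2A and 0.683 for MT2A with SLC30A1. Without GSKJ4 these fell to 0.613, 0.493 and 0.441. Of the tested genes with a mean TPM of at least 1, SLC30A1 and MT2A were the closest to MT1X, and MT1X and MT2A the closest to SLC30A1. The genes closest to MT2A were SPON2 (0.756), OSGIN1 (0.705), MT1X, ZSWIM4 (0.692) and KSR1 (0.687). The next after the members were LINC00115 (0.670), RPS10P7 (0.648) and RHBDL1 (0.644) for MT1X, and MGEA5 (0.627), RERE (0.619) and ATP13A5-AS1 (0.619) for SLC30A1. With GSKJ4 left out no member was among the 5 closest to another. The 20 means share flow cells, and each rests on 2 samples, so the values describe this set of compounds.

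N1302, the epoxide HDAC inhibitor, moved the members in different directions after 6 h, in 1 treated and 1 DMSO sample with no replicate check. MT1X went from 38.4 to 216 TPM, a ratio of 5.63 (95% counting interval 4.71 to 6.75), and MT2A from 358 to 734 TPM, a ratio of 2.05 (1.92 to 2.19). SLC30A1 went from 29.5 to 15.1 TPM, a ratio of 0.511 (0.435 to 0.598). On the log2 scale 2 of the 4 tested members were past 2-fold higher, beside 11.6% of genes higher and 19.3% lower. Against the mean of both 6 h RH4-titled DMSO samples the log2 changes were 3.19 for MT1X and 1.49 for MT2A, in place of 2.46 and 1.03. MTF1 differed by -0.29, which turned to 0.03 with median-ratio scaling, a scaling that moved all genes by 0.33. Of the 7 FP-RMS markers 5 were past 2-fold lower with N1302, and their part in these values was not tested.

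The other zinc transporters were spread as widely with N1302. Of 7 other exporters 2 were past 2-fold higher, SLC30A2 from 0.159 to 8.02 TPM (141 reads) and SLC30A3 from 2.56 to 17.4 TPM, and 0 lower. Of 11 importers 2 were past 2-fold higher, SLC39A3 from 5.00 to 30.8 TPM and SLC39A2 from 0.0702 to 1.304 TPM, and 1 lower, SLC39A10 from 22.8 to 3.49 TPM.

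Entinostat, the benzamide, moved no tested member past 2-fold at 1 or 6 h. It raised 3 members by 24 h, in 1 sample per time. MT1X with entinostat and with DMSO was 17.6 and 15.4 TPM at 1 h, 16.1 and 13.3 TPM at 6 h, and 70.9 and 18.8 TPM at 24 h. MT2A was 214 and 204 TPM at 1 h, 244 and 190 TPM at 6 h, and 378 and 191 TPM at 24 h. SLC30A1 was 22.5 and 25.0 TPM, 18.7 and 19.3 TPM, and 39.2 and 19.8 TPM at those times. The 24 h ratios were 3.78 for MT1X (3.01 to 4.78), 1.98 for MT2A (1.84 to 2.14) and 1.98 for SLC30A1 (1.77 to 2.204). The counting intervals cover counting error only, and the MT1X intervals at 1 and 6 h included 1. Against the mean of both 6 h RH4-titled DMSO samples the 6 h log2 changes turned to -0.48 for MT1X and -0.10 for MT2A, from 0.25 and 0.36.

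Past 2-fold on the log2 scale were 0 of 4 members at 1 h, 0 at 6 h and 1, MT1X, at 24 h, beside 0.66%, 5.13% and 16.4% of genes higher. MT2A (0.98) and SLC30A1 (0.95) lay just under the line at 24 h, and with median-ratio scaling 3 members were past it. Of the 7 FP-RMS markers 5 were past 2-fold lower at 24 h and 1 at 6 h, beside 6.06% and 0.947% of genes lower. MTF1 stayed below DMSO, with ratios from 0.790 to 0.874 over the 3 times. SLC30A2 was at 5.68 TPM (169 reads) against 0.0619 TPM (2 reads) at 24 h, SLC30A3 at 14.9 against 2.81 TPM and SLC39A8 at 60.7 against 27.8 TPM.

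**Figure D5:**
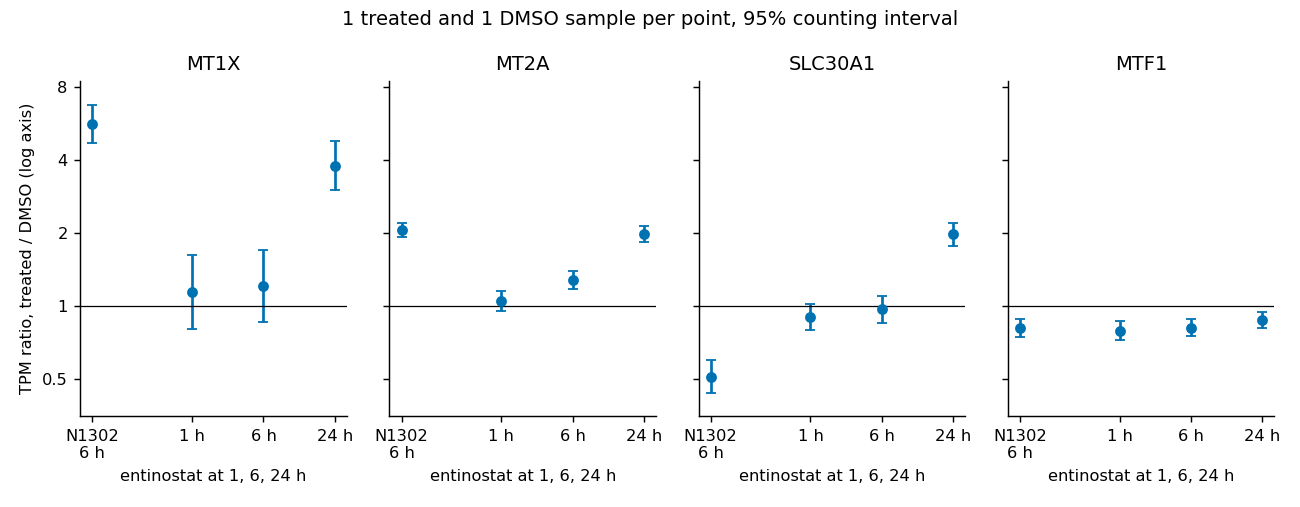
Ratio of TPM in 1 treated sample to 1 DMSO sample (log axis) for N1302 at 6 h and entinostat at 1, 6 and 24 h, with 95% counting intervals, which hold no replicate error. MT1X is highest with N1302 (5.63), MT1X, MT2A and SLC30A1 rise above 1 at 24 h of entinostat, and SLC30A1 is below 1 with N1302 (0.511).

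The other metallothionein genes stayed at or near 0 in DMSO. Of 9 such genes MT3, the brain-enriched form, passed the filter, with 0 reads in all 8 DMSO samples, and the remaining 8 had 0 to 3 reads over all 52 samples. MT3 had 23 reads with N1302 (5.62 TPM), 15 and 10 with LAQ824 at 5 and 0.5 uM (2.46 and 1.39 TPM), 11 with entinostat at 24 h (1.59 TPM), 3 with WT161 at 10 uM and 1 with Trametinib at 10 uM. Over both doses the log2 change of MT3 was 1.52 with LAQ824 and 0.47 with WT161. MT3 passed the filter only through samples in which it was high, and 46 of 52 samples were listed at 0. The spread of its limma fit therefore comes mostly from zeros, and no p-value is given. MT3 had 0 reads with Cpd50 and GSKJ4 at both doses.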

How the data were processed

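RNA was measured by poly-A RNA-seq in 52 samples, each with its own table. According to the study's methods the authors aligned reads with STAR to hg19 and estimated TPM with RSEM, and the values analysed here are TPM as the authors deposited them. Because 99.71% of expressed genes held whole multiples of a step per gene (within 0.01 reads), reads were worked out from these steps. RSEM gives fractional estimates, so the stated method and the whole reads conflict, which was not resolved, and in 3 samples the reads were seldom odd and may be too high by a factor. They were used for depth, the 95% counting intervals (exact conditional binomial) and limma-voom, not for the main tests. Metallothioneins are near-identical in places, which can move reads between them.

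Samples were grouped by the labels. For the screen, log2(TPM + 1) of 16359 genes (TPM of at least 1 in 2 or more samples) was fitted in limma 3.58.1 (R 4.3.3), with a term per compound, both doses as its samples and DMSO averaged per concentration, which left 2 DMSO samples. In DMSO the replicate number matched the flow cell in both concentrations (correlation of deviations 0.0719), and a replicate block was an alternative. Calls are at a Benjamini-Hochberg adjusted p below 0.05 over all genes. A compound was also fitted at 1 dose alone against both DMSO concentrations, with the spread of the other dose pairs. Class contrasts used compound means, and the 7 pairs were adjusted over genes and pairs. N1302 and entinostat had 1 sample per condition and no test.

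On simulated GSKJ4 data the fit called 96 of 100 genes changed 4-fold, 99 of 100 changed 16-fold and 10 of 16159 unchanged genes. Those rates do not carry over to changes seen mainly at the high dose, where the gap between doses enters the spread. In the real GSKJ4 samples 0 of 16359 genes were called higher over both doses. MT1X, with a log2 change of 3.51, was not called there. The members and gene lists were chosen with earlier results of these data known. Named genes are the members, up to 3 called genes per list and compound by size of change, and the 5 genes most like MT1X, MT2A and SLC30A1. Alternatives were the pseudocount, scaling, filter, controls, doses, samples in the fit, flow cell and voom. Motifs and promoters came from RefSeq tables (GRCh38.p14), in which MT1E, MT1F, MT1G, MT1L and MT1M were not found.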

Additional observations from a re-analysis of the deposited data

Results flagged for a closer look

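Among the 5 HDAC-labelled compounds at their low dose, the LAQ824 sample at 0.5 uM stood apart in MT1X, at 15.5 TPM against 1.82 to 5.26 TPM in the other 4. Its gap to the nearest of them was larger than the 95% limit of Dixon's test, which chance passes in about 1 of 20 groups. The dose also differed, at 0.5 uM for LAQ824 and 1 uM for the others.

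MT3, a metallothionein gene that was no member, had reads in samples whose DMSO controls had 0. There were 23 reads with N1302, 11 with entinostat at 24 h, 15 with LAQ824 at 5 uM and 10 with LAQ824 at 0.5 uM, above the 3 reads that a count of 0 allows. Over both doses the log2 change of MT3 with LAQ824 was 1.52. The gene passed the filter only through these samples, so its limma fit cannot serve as a test. The N1302 and entinostat values come from 1 sample each and were not tested.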

How the results depend on the processing

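Calls of the 4 members depended mostly on which samples set the spread. The counts of calls here stand without the share of all genes called under each setting. They describe the settings and are not a result about the members. With each compound fitted on its own samples and DMSO only, calls went from 2 to 8 higher for the HDAC-labelled compounds, from 0 to 2 higher and 1 lower for the Jumonji-labelled and from 0 to 6 higher and 1 lower for the others. With the high dose only there were 1, 3 and 2 higher calls, and with the low dose only 0 for the HDAC-labelled. Median-ratio scaling left 1 higher HDAC call and put 3 members past 2-fold with entinostat at 24 h in place of 1. All 4 DMSO libraries as separate samples gave 1 lower call among the others and 1 member called with Cpd50 at 5 uM alone. The other compounds of the flow cell without DMSO as reference gave 2 higher and 1 lower calls for the 13 others. They also gave 1 higher call for the HDAC-labelled, MTF1 with WT161. In Jumonji-labelled against other compounds, 2 members were called with high doses only and 1 without LAQ824, against 0. A flow cell term could give no value for that contrast, since the Jumonji-labelled compounds had a flow cell to themselves among the compounds. Alternatives chosen after seeing the data included leaving the GSKJ4 samples out, with 2 higher Jumonji calls, 1 lower call among the others and 4 calls over the 6 remaining pairs in place of 2. Leaving out each DMSO library in turn kept the counts at 2 to 2 for the HDAC-labelled and 0 to 0 for the others, with 3 to 3 members called for GSKJ4 at 5 uM alone. For the 7 HDAC- and Jumonji-labelled compounds of the screen, 420 single values under these settings held 14 that gained a call, 4 that lost one and 13 tested values, all uncalled, that turned direction. The log2 change of SLC30A1 with Merck60 turned to -0.0305 at the high dose only, -0.0414 with voom and -0.41 against the other compounds of the flow cell, where MTF1 with Merck60 was -0.0851 and MT1X with OJI-1 -0.35. At the low dose only OJI-1 had -0.23 in MT1X and -0.0095 in MT2A. Leaving out each DMSO library gave -0.0187 to 0.0395 for SLC30A1 with Merck60, -0.0636 to 0.0103 for MTF1 with MC1568, -0.0199 to 0.468 for MT1X with OJI-1 and -0.0304 to 0.0671 for MT2A with OJI-1. Of 40 values of N1302 and entinostat 4 changed sign, being MT1X (-0.48) and MT2A (-0.10) with entinostat at 6 h against both 6 h DMSO samples, and, with median-ratio scaling, SLC30A1 with entinostat at 6 h (0.07) and MTF1 with N1302 (0.03). The DMSO replicate numbers followed the flow cell. With the replicate number as a block between DMSO concentrations 0 members were called, as without it, and the unadjusted p of MT2A went from 0.149 to 0.0391 in limma (adjusted p = 0.449), with 1768 genes under 0.05 before adjustment in place of 1548. The cause of these changes was not tested. Depth limited MT1X, with 3 to 11 reads per screen DMSO library.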
